A study of Mus musculus with 12 samples.

Results

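Prostanoids are short-lived lipid signals made from arachidonic acid. Phospholipases free the fatty acid from membranes, the cyclooxygenases Ptgs1 and Ptgs2 turn it into prostaglandin H2, and terminal synthases turn that intermediate into prostaglandin E2, prostaglandin D2, prostacyclin or thromboxane. Hpgd, 15-hydroxyprostaglandin dehydrogenase, starts the breakdown of prostaglandin E2 and is often described as the counterweight of cyclooxygenase in epithelial tumors. Ptgs1 is usually called the constitutive cyclooxygenase and Ptgs2 the inducible one.

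The 10 genes described here are the cyclooxygenases Ptgs1 and Ptgs2, the prostaglandin E synthases Ptges, Ptges2 and Ptges3, the prostaglandin D synthases Ptgds and Hpgds, thromboxane A synthase Tbxas1, prostacyclin synthase Ptgis, and Hpgd. They were taken by name out of 32498 named genes in RNA-seq files of mouse tongue. Each of the 12 libraries was taken as 1 C57BL/6 mouse, since no animal identifiers were used. All mice, bought at 5 weeks of age, drank the carcinogen 4-nitroquinoline 1-oxide (4NQO) at 100 µg/mL for 16 weeks. The 6 GA mice also received the plant polyphenol gallic acid (GA) at 100 mg/kg by gavage 5 times a week from week 4 until they were killed, and the 6 Vehicle mice received the carrier alone. The tissue is labelled tumor and tumor-associated, so it is a mixture in which fewer cells of a type and less RNA per cell cannot be told apart. Gallic acid was tested against tongue carcinogenesis, and the question asked here is whether the transcripts of prostanoid synthesis and breakdown differed with it.

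Levels are FPKM (reads corrected for gene length and library total), after a common scaling of the libraries. Gene length is that of all annotated exons merged, such as 1683 bases for Hpgd and 9094 for Tbxas1. A gene read from a shorter transcript is therefore understated, and comparisons between genes hold only within this limit. Library totals worked out from the files lay between 18040334 and 25192680 reads. The epithelial keratins Krt13 and Krt5 were high in all libraries, at 5579 to 22196 and 923 to 3070 FPKM. Lipf, a lipase of tongue glands, was at 21952, 8079 and 26220 FPKM in Vehicle 3, Vehicle 5 and GA 2 and at most 0.498 FPKM in the other 9. Reads from Y-linked genes were present in Vehicle 1 to 4 and GA 1 and absent in the other 7, so sex, as the RNA shows it, was unequal between the groups. For several of the results, values without the gland libraries or with a sex term stand beside them.

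The promoters of the cyclooxygenase genes and of Ptges are shown first. Whether their motifs bear on the level or spread of a transcript was not tested. RefSeq (GRCm38.p6) held a promoter for 9 of the 10 genes, and Ptgis was not among them. The 250 bases before the RefSeq transcript start are printed 5′ to 3′ on the gene's strand, with motif matches in capitals. The upstream windows are chr2:36230176-36230425 on the plus strand for Ptgs1, chr1:150099781-150100030 on the plus strand for Ptgs2 and chr2:30903298-30903547 on the minus strand for Ptges.
Ptgs1: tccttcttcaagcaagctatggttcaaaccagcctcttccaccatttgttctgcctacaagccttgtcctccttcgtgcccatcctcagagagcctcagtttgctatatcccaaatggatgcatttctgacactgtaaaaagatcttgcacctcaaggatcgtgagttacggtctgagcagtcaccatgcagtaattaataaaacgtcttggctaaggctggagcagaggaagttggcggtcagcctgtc
Ptgs2: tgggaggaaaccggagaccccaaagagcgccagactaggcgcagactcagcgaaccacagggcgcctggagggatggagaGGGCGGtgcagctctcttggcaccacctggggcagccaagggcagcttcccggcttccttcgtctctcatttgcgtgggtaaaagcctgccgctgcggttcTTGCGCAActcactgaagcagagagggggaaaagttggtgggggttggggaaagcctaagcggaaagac
Ptges: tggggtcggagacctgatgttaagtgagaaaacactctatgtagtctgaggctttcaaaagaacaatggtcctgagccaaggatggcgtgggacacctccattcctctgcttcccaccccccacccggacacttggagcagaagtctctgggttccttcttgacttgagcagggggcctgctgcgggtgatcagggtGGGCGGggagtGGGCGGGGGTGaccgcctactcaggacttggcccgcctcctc

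On both strands, 8 motifs were searched, namely the TATA box (TATAAA), the CCAAT box (CCAAT), the GC box (GGGCGG), the E-box (CACGTG), the core of a cAMP element (TGACG), the AP-1 motif (TGANTCA), the C/EBP motif (TTGCGCAA) and an Egr motif (GCGGGGGTG). None of them matched in the window of Ptgs1. In Ptgs2 the capitals mark a GC box, which 32.7% of 32851 promoters of the same length hold, and the C/EBP motif, which 0.164% hold. In Ptges they mark 2 GC boxes, the second overlapping a match of the Egr motif, which 0.868% of promoters hold. Positions are relative to the RefSeq start, and where transcription started in these samples was not measured. Past that start, at chr1:150100035-150100058, Ptgs2 has the core of a cAMP element, on the reverse strand, overlapping an E-box. Of the 32851 windows before the start, 17.8% hold the first motif and 6.02% the second, and shares past the start were not counted. The stretch of Ptgs2 reads as follows.
Ptgs2 after the start: tcaccactaCGTCACGTGgagtcc
Among the other genes, the window of Ptges2 held an E-box (6.02% of promoters hold this motif) and those of Ptgds and Tbxas1 an AP-1 motif (6.75%). That of Tbxas1 also held 2 overlapping TATA boxes on opposite strands (12.4%), and those of Ptges3 and Hpgd held a GC box. A match is only a run of letters, and no binding was measured.

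The most abundant of the 10 transcripts was Ptges3, the co-chaperone p23 that also has prostaglandin E synthase activity, at 47.2 ± 7.01 FPKM (SD, n = 12). Hpgd followed at 45.1 ± 24.2 FPKM, Ptges at 21.1 ± 9.05, Ptgs1 at 11.99 ± 4.25, Ptgs2 at 6.02 ± 7.99 and Ptges2 at 5.26 ± 1.33. Ptgis, Hpgds, Tbxas1 and Ptgds were low, at 1.48 ± 0.624, 0.981 ± 0.394, 0.124 ± 0.0849 and 0.0489 ± 0.0556 FPKM. Not every step of this order held within libraries. Ptges exceeded Ptgs1 in 12 of 12 libraries, Ptges2 exceeded Ptgis in 12 of 12, and Hpgds exceeded Tbxas1 in 12 of 12. Ptges3 exceeded Hpgd in only 5 of 12 and Hpgd exceeded Ptges in 8 of 12. Ptgs2 had the higher mean but exceeded Ptges2 in 3 of 12 libraries, and Ptgis exceeded Hpgds in 8 of 12. For these neighbours the difference was smaller than or close to its own spread (for Ptges3 over Hpgd, 0.29 ± 0.98 on the log2 scale, SD).

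**Figure D1:**
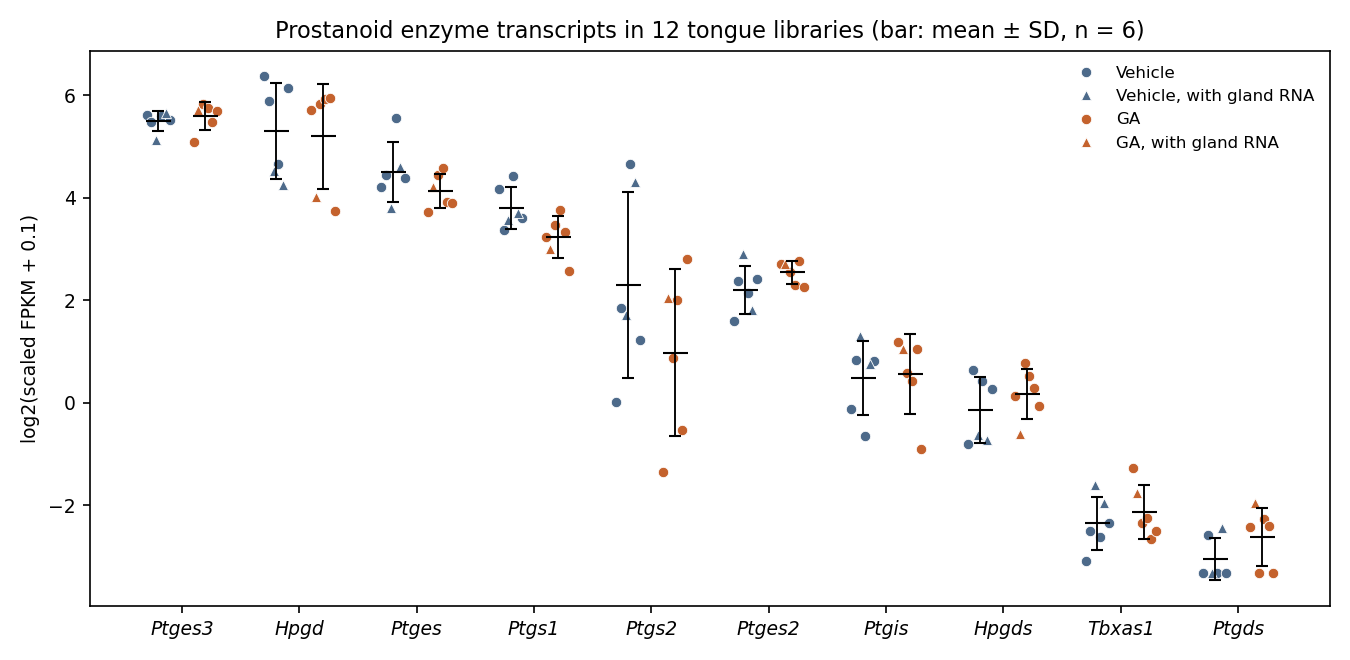
Level of each enzyme transcript as log2(scaled FPKM + 0.1) in 6 Vehicle (blue) and 6 GA (orange) libraries, with triangles for the 3 libraries that hold gland RNA and black bars for mean ± SD. The groups overlap for all 10 genes, and Ptgs2 has the widest spread, from 0.294 to 25.2 FPKM.

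The cyclooxygenases were compared library by library. Ptgs1 (chromosome 2, 36230426 to 36252272 in GRCm38, 11 merged exons) lay between 10.2 and 21.5 FPKM in Vehicle libraries (median 12.5) and between 5.83 and 13.5 in GA libraries (median 9.68). Ptgs2 (chromosome 1, 150100031 to 150108227, 11 merged exons) stood at 0.908, 3.52, 3.16, 25.2, 19.7 and 2.23 FPKM in Vehicle 1 to 6. In GA 1 to 6 it stood at 0.294, 4.01, 1.74, 3.93, 0.595 and 6.87 FPKM. Vehicle 4 and Vehicle 5 were thus far above the other 10 libraries, 1 of them with gland RNA and 1 without.

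Ptgs1 exceeded Ptgs2 in 9 of 12 libraries, and the exceptions were Vehicle 4, Vehicle 5 and GA 6. The mean log2 ratio of Ptgs1 to Ptgs2 was 1.88 ± 1.74 (SD, n = 12), or 3.69-fold (exact sign-flip permutation test, two-sided p = 0.00439). In single libraries the ratio ran from 0.655 in Vehicle 5 to 23.9 in GA 1. Within the groups it was 1.51 ± 1.76 in Vehicle (exact permutation p = 0.125, n = 6) and 2.25 ± 1.80 in GA (exact permutation p = 0.0625, n = 6), where the smallest p that 6 libraries allow is 0.0313. The groups did not differ detectably in this ratio (GA minus Vehicle 0.74, exact permutation test, two-sided p = 0.494, n = 6 per group). That difference ran from 0.27 without GA 1 to 1.27 without Vehicle 1, and was 1.57 with the sex term and 0.03 with the neutrophil score as a covariate. Without the 3 gland libraries the mean log2 ratio was 2.26 (exact permutation p = 0.0156, n = 9).

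**Figure D2:**
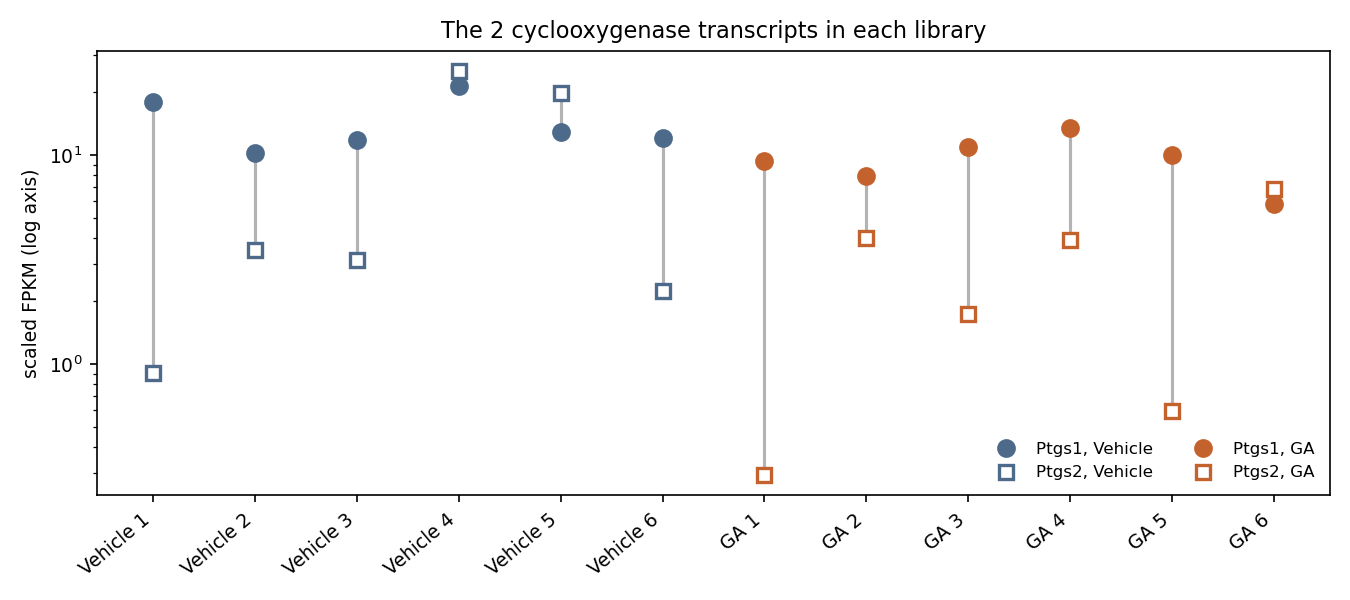
Scaled FPKM (log axis) of Ptgs1 (filled circles) and Ptgs2 (open squares) in each of the 6 Vehicle and 6 GA libraries, joined by a line. Ptgs2 lies above Ptgs1 in Vehicle 4, Vehicle 5 and GA 6, and its range is much wider than that of Ptgs1.

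The same contrast appeared in the spread. The SD of Ptgs2 within groups was 1.72 on the log2 scale, and 97.3% of the 16847 tested genes varied less. For Ptgs1 it was 0.41, close to the median over all tested genes of 0.39, with 52.3% of genes below it. Hpgd was also variable (0.98, 88.2% of genes below), as was Ptgis (0.75, 78.2%), whereas Ptges3 was among the steadier genes (0.24, 24.7%).

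Gallic acid was then compared with vehicle. With limma, 0 of 16847 genes (0%) met both limits, an adjusted p (Benjamini-Hochberg) below 0.1 and a log2 fold change of at least 0.58 in size. The smallest adjusted p was 1.00 when rounded, and 364 genes (2.16%) had an unadjusted p below 0.05. Of the 9 enzyme genes tested, 0 were called and each had an adjusted p of 1.00. Only Ptgs1 had an unadjusted p below 0.05, where 1.04% of tested genes were lower with GA at that limit. At an unadjusted p below 0.1 and the same fold change limit, 328 genes (1.95%) passed and 0 of the 9 enzymes did. Ptgs1, at a log2 fold change of -0.577, lay just short of the limit. In 15 of 26 alternatives 1 enzyme passed, and it was not always Ptgs1, which was at -0.50 with the sex term. Over all tested genes, between 75 (pseudocount of 1) and 860 (without GA 6) passed in these alternatives. Ptgds was left out by the filter on low values. Of the 9, 5 were higher and 4 lower with GA, and their median log2 fold change was 0.07 against 0.00 over all tested genes. The groups overlapped for all 10 enzymes, and groups that did not overlap were seen for 0.0653% of tested genes.

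Ptgs1 had a mean of 14.4 ± 4.37 FPKM in Vehicle and 9.59 ± 2.63 in GA (SD, 6 libraries each), and its log2 fold change was -0.58 with a standard error of 0.22 and a 95% interval of -1.05 to -0.10 (limma). Its unadjusted limma p was 0.0214 and its exact permutation p was 0.0346 (two-sided). In GA, 5 of 6 libraries lay below the median of Vehicle, and GA 3 and GA 4, at 10.9 and 13.5 FPKM, lay inside the Vehicle range. The study reported Ptgs1 as significantly downregulated from its RNA-seq of these mice, so the value is not independent evidence. Its test was edgeR on read counts, at an FDR below 0.1 and the same fold change limit. Here limma on FPKM did not call Ptgs1, and why the 2 tests differ was not tested. The unadjusted limma p was 0.0510 without Vehicle 4, the highest library at 21.5 FPKM, 0.0564 without the gland libraries and 0.0798 with the sex term, at log2 fold changes of -0.45, -0.62 and -0.50. Among libraries that lacked Y-linked reads, Ptgs1 averaged 12.5 FPKM in 2 of Vehicle and 9.64 FPKM in 5 of GA. On the other strand, Gm43621 overlaps 3.81% of its exon bases, and whether reads were counted by strand is not given.

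Ptgs2 had the largest estimate in size among the 9 and the least certain. Its mean was 9.13 ± 10.5 FPKM in Vehicle and 2.91 ± 2.51 in GA, a log2 fold change of -1.32 with a 95% interval of -3.25 to 0.62 (limma, unadjusted p = 0.164, exact permutation p = 0.216). In GA, 3 of 6 libraries lay below the median of Vehicle. Adding a sex term moved the estimate to -2.07, adding the neutrophil score moved it to -0.59, and leaving out Vehicle 4 moved it to -0.84. The medians of the groups, 3.34 and 2.84 FPKM, lay much closer than the means.

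**Figure D3:**
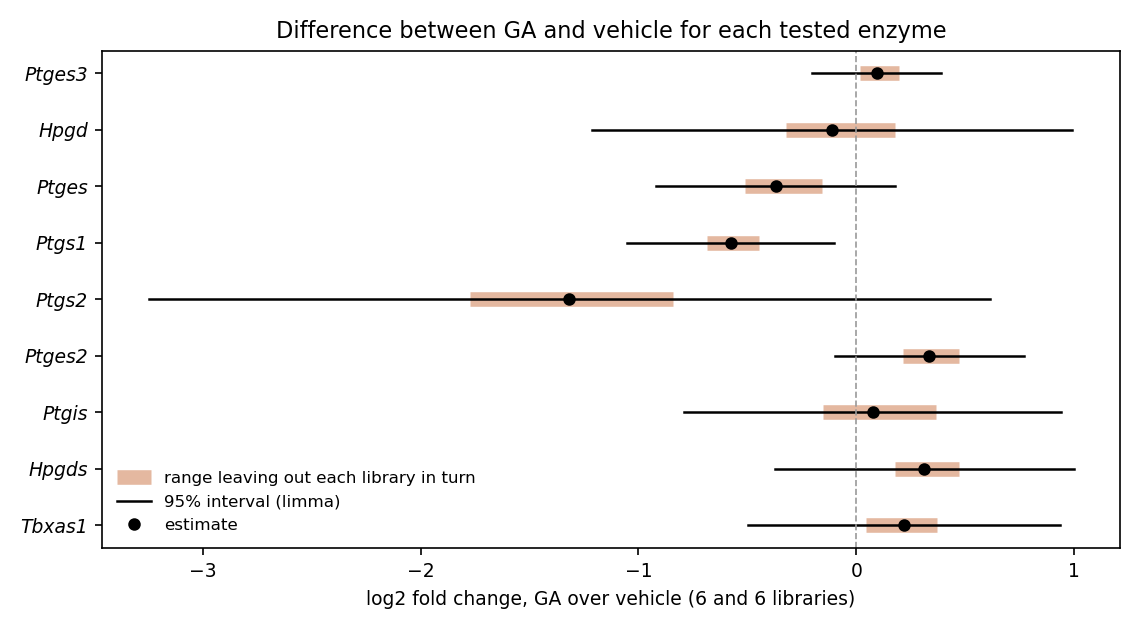
Log2 fold change of GA over Vehicle for the 9 tested enzymes (points), with 95% intervals from limma (lines) and the range of the estimate when each library is left out in turn (orange bars). The interval of Ptgs1, from -1.05 to -0.10, is the one that lies on 1 side of 0.

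Among the terminal synthases, Ptges, the inducible microsomal prostaglandin E synthase, lay between 13.8 and 47.1 FPKM in Vehicle (median 21.3) and between 13.2 and 23.9 in GA (median 16.8). Vehicle 4, at 47.1 FPKM, stood far above the other Vehicle libraries, of which the next was Vehicle 5 at 24.2. The log2 fold change was -0.37 (95% interval -0.92 to 0.18 in limma, exact permutation p = 0.212). It was -0.16 without Vehicle 4 and -0.54 without the gland libraries. Ptges2, the second microsomal enzyme, lay between 2.91 and 7.35 FPKM in Vehicle (median 4.73) and between 4.67 and 6.66 in GA (median 6.06). Its log2 fold change was 0.34 (95% interval -0.10 to 0.77 in limma, exact permutation p = 0.147), with 5 of 6 GA libraries over the median of Vehicle. Without Vehicle 3, the highest library, it was 0.47 with an unadjusted limma p of 0.0182, and without Vehicle 1, the lowest, it was 0.21 with a p of 0.265. It was 0.26 without Vehicle 5. Ptges3 was at 45.5 ± 5.53 FPKM in Vehicle and 48.9 ± 8.40 in GA, a log2 fold change of 0.09 (95% interval -0.20 to 0.39), and its sign turned with the sex term (-0.06). It was 0.01 without the gland libraries.

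Expressed as shares of the summed FPKM of the 3 prostaglandin E synthases, Ptges3 made up 48.4% to 72.7%, Ptges 20.8% to 47.3% and Ptges2 4.14% to 13.1% of a library. The median share of Ptges was 29.7% in Vehicle and 24.3% in GA, and that of Ptges3 was 63.1% and 67.3%. These shares were not tested.

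The prostaglandin D synthases were scarce. Hpgds, the hematopoietic enzyme of mast cells and other immune cells, lay between 0.470 and 1.45 FPKM in Vehicle (median 0.828, 56 to 185 reads) and between 0.551 and 1.61 in GA (median 1.06, 82 to 251 reads), a log2 fold change of 0.31 (95% interval -0.37 to 1.00 in limma, exact permutation p = 0.364). It was 0.20 without the gland libraries and 0.18 without Vehicle 1. Ptgds, the lipocalin-type enzyme, had 0 to 3 reads in Vehicle and 0 to 6 in GA libraries and was at 0 in 6 of 12. A count of 0 allows up to 3 reads, a level of 0.0823 to 0.0893 FPKM in the libraries where 3 were counted, and this limit covers counting error only. Hpgds exceeded Ptgds in 12 of 12 libraries, with a mean log2 ratio of 2.85 ± 0.80 on the log2(FPKM + 0.1) scale (exact sign-flip permutation p = 0.000488, the smallest possible with 12). The ratio did not differ detectably between the groups (GA minus Vehicle -0.13, exact permutation p = 0.810, n = 6 each), and the value depended on the pseudocount, since Ptgds was at 0 in 6 libraries (-0.99 with 0.01 and 0.09 with 1).

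Tbxas1, which makes thromboxane and is typical of platelets and macrophages, had 3 to 62 reads a library, between 0.0178 and 0.227 FPKM in Vehicle and between 0.0588 and 0.316 in GA. The highest library was GA 1. Ptgis, the prostacyclin synthase of vessel walls and stroma, lay between 0.538 and 2.35 FPKM in Vehicle (median 1.62) and between 0.436 and 2.18 in GA (median 1.67). Their log2 fold changes were 0.22 (95% interval -0.50 to 0.94) and 0.07 (95% interval -0.79 to 0.94) in limma. Tbxas1 was at 0.43 and Ptgis at 0.24 without the gland libraries, and Tbxas1 was at 0.05 without GA 1. Both intervals are wide on either side of 0, and smaller changes were not detectable at this depth and spread. Gene 1110018N20Rik on the other strand overlaps 6.08% of the exon bases of Ptgis.

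Hpgd stood at 83.1, 59.6, 22.9, 25.3, 18.9 and 70.5 FPKM in Vehicle 1 to 6. In GA 1 to 6 it stood at 52.1, 16.0, 56.9, 61.0, 61.8 and 13.3 FPKM. The libraries fell into a low set of 5 (Vehicle 3, 4 and 5, GA 2 and 6, at most 25.3 FPKM) and a high set of 7 (at least 52.1 FPKM), and both sets held libraries of both groups. All 3 gland libraries were in the low set, and without them Hpgd averaged 59.6 FPKM in 4 Vehicle and 49.0 in 5 GA libraries (log2 fold change -0.34). The log2 fold change over all 12 was -0.11 (95% interval -1.21 to 0.99 in limma, exact permutation p = 0.892), and its sign turned with the sex term (0.06), was -0.51 with the neutrophil score as a covariate, and turned when any of 5 libraries was left out.

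Ptges and Hpgd, which act in synthesis and breakdown of prostaglandin E2, were compared as a ratio of their transcripts. No prostaglandin was measured here, and the ratio leaves out the other enzymes of both steps. The ratio was above 1 in 4 libraries, at 1.86 in Vehicle 4, 1.28 in Vehicle 5, 1.15 in GA 2 and 1.11 in GA 6, and between 0.223 and 0.606 in the other 8. All 4 belong to the low set of Hpgd, which is the divisor of the ratio, so the observations are not independent. The mean log2 ratio was -0.81 ± 1.22 in Vehicle and -1.07 ± 1.00 in GA (SD, n = 6 each), a difference of -0.26 (exact permutation test, two-sided p = 0.673). The difference was -0.52 with the sex term and -0.03 without Vehicle 5.

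The rest of the pathway was followed with lists of genes. Over all tested genes 2.16% had an unadjusted limma p below 0.05, so a count of 0 in lists this short says little. For release of arachidonic acid, 0 of 13 tested genes had an unadjusted p below 0.05, 4 were higher and 9 lower with GA, and the epithelial phospholipases Pla2g4f and Pla2g4d were the most abundant at 25.4 and 16.5 FPKM. For the other prostaglandin enzymes, 0 of 10 passed that limit, 4 were higher and 6 lower. The highest were Ptgr1, a reductase that inactivates prostaglandins and leukotrienes, at 394 FPKM and Cbr3, a carbonyl reductase, at 118 FPKM. Ptgr1 was thus the most abundant breakdown enzyme of the lists, at 406 ± 117 FPKM in Vehicle and 382 ± 120 in GA.

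The prostanoid receptors were low. Of 9, Ptger1, Ptger2, Ptgdr and Ptgdr2 fell below the filter and 0 of the other 5 had an unadjusted p below 0.05 (1 higher, 4 lower). The most abundant was Ptger3, a prostaglandin E2 receptor, at 1.87 FPKM, followed by Ptgfr, the prostaglandin F receptor, at 1.05. Of 4 transporters, 0 passed that limit (1 higher, 3 lower), with the exporter Abcc4 at 10.2 FPKM and the uptake carrier Slco2a1 at 4.33. In the lipoxygenase branch, which draws on the same fatty acid, 0 of 10 passed (5 higher, 5 lower), and Alox12b, an enzyme of the epidermal barrier, was at 202 FPKM with Aloxe3 at 16.5. The median log2 fold changes of these lists were -0.13, -0.03, -0.16, -0.29 and -0.01, in the order given, against 0.00 over all tested genes.

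Inflammatory signals were listed too, as a mixed list of interleukins, chemokines and targets of NF-κB that holds inducers of Ptgs2 such as Il1b and Tnf but also the antagonist Il1rn and the NF-κB inhibitors Nfkbia and Tnfaip3. All 11 genes had negative estimates with GA, where 49.0% of all tested genes did. That of Il1rn was only -0.03, and its mean FPKM was higher with GA (29.9 against 28.1). The mean log2 level of the list was 3.46 and 3.68 in Vehicle 4 and 5. It was 0.81 to 1.52 in the other Vehicle libraries, inside the GA range of 0.38 to 2.59. The median estimate of the 11 genes was -0.55. Of the 11, Nfkbia alone had an unadjusted limma p below 0.05 (61.9 ± 18.9 FPKM in Vehicle, 45.0 ± 10.5 in GA, log2 fold change -0.44, exact permutation p = 0.0628). Il1b, a strong inducer of Ptgs2, lay between 0.769 and 62.3 FPKM in Vehicle (median 3.10) and between 0.745 and 20.6 in GA (median 1.13), with a log2 fold change of -1.63 and an exact permutation p of 0.193. Of 15 immediate early genes, 14 had negative estimates, and Fos and Dusp1 had an unadjusted p below 0.05 (log2 fold changes -1.53 and -0.80, exact permutation p = 0.0368 and 0.0238). The study had reported Fos and Dusp1 as downregulated on the same samples, with edgeR on read counts. Over all tested genes, 1.04% were lower with GA at an unadjusted limma p below 0.05. No gene of either list passed adjustment over all genes.

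Across libraries, Ptgs2 followed the inflammatory signal score, the mean log2 level of that list. Pearson's r was 0.88 (permutation p = 0.000120, adjusted p = 0.00216 over 18 relations) and Spearman's rho 0.93 (permutation p = 8.00e-05, adjusted p = 0.00144), n = 12. Vehicle 4 and Vehicle 5, with scores of 3.46 and 3.68, were the farthest from the median and also the highest for Ptgs2. Without them r was 0.70 (permutation p = 0.0233, n = 10), and without the gland libraries it was 0.88 (permutation p = 0.000690, n = 9). Ptges gave r = 0.63 with the same score (rho 0.56, permutation p = 0.0304 and 0.0624, adjusted p = 0.129 and 0.187), and r = 0.11 without the same pair of libraries. Hpgd ran against this score (r = -0.69, rho -0.64, adjusted permutation p = 0.0745 and 0.135). Its r was -0.72 without that pair of libraries and -0.61 without the gland libraries (permutation p = 0.0158 and 0.109). With the immediate early list, Ptgs2 gave r = 0.73 and rho 0.76 (adjusted permutation p = 0.0651 and 0.0473). Without the 2 libraries farthest from the median of that list, r was 0.49 (permutation p = 0.161). These 18 relations were chosen after the data had been seen.

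The levels were also set against marker scores of 11 cell types, 99 relations in all. Only Ptges2 and Ptgis with the skeletal muscle score passed adjustment at 0.05 for both coefficients. For Ptges2 r was 0.86 and rho 0.92 (permutation p = 0.000450 and 5.00e-05, adjusted p = 0.0267 and 0.00247), and for Ptgis r was 0.85 and rho 0.94 (permutation p = 0.000540 and 3.00e-05, adjusted p = 0.0267 and 0.00247), n = 12. Without the 2 libraries farthest from the median score, r was 0.81 and 0.86 (adjusted p = 0.0873 and 0.0124). Within the 9 libraries without gland RNA it was 0.91 and 0.83 (adjusted p = 0.00858 and 0.146). The muscle score was not the one score they followed. By adjusted p of rho alone, Ptgis also passed with oral epithelium (rho -0.85, adjusted permutation p = 0.0244), endothelium (0.82, 0.0412) and smooth muscle (0.80, 0.0412), and Ptges2 with oral epithelium (-0.80, 0.0412). For Ptges2 within the 9 libraries without gland RNA, r was 0.95 with endothelium and 0.95 with smooth muscle (adjusted permutation p = 0.00841 for both). Without the 2 farthest libraries r was 0.17 with endothelium and 0.90 with smooth muscle, of which the second passed adjustment (adjusted permutation p = 0.00495). The muscle score ran from 5.99 in Vehicle 1 to 9.23 in Vehicle 3. Of its 8 genes, 7 had positive estimates with GA, as did 8584 of all 16847 tested genes. The summed level of the muscle list ran from 1248 to 10071 FPKM in Vehicle and from 1810 to 7717 in GA. Its most abundant genes were Acta1 at 1674 and Tnnt3 at 927 FPKM. With the muscle score as a covariate the log2 fold change of Ptgis was -0.13 in place of 0.07 and that of Ptges2 0.23 in place of 0.34.

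By Pearson's r, Tbxas1 was highest with macrophages (r = 0.80, rho 0.69, permutation p = 0.00169 and 0.0151, adjusted p = 0.0558 and 0.171), while its highest rho was 0.73 with the salivary gland list. Macrophages hardly stood out, since r was 0.75 with endothelium, 0.75 with skeletal muscle, 0.73 with smooth muscle and -0.73 with oral epithelium. The adjusted permutation p of these was 0.0622, 0.0666, 0.0715 and 0.0715. Within the 9 libraries without gland RNA the macrophage values were r = 0.77 and rho 0.42 (permutation p = 0.0382 and 0.270). That list, led by Lyz2 at 92.9 FPKM, summed to 173 to 519 FPKM in Vehicle and 109 to 401 in GA. The highest r of Ptgs2 was with neutrophils (r = 0.73, rho 0.59, permutation p = 0.00683 and 0.0455, adjusted p = 0.0715 and 0.242). This rests on the 2 libraries farthest from the median score, without which r was 0.34 and rho 0.31 (permutation p = 0.351 and 0.386, n = 10). Without the gland libraries r was 0.71 and rho 0.35 (permutation p = 0.0383 and 0.363, n = 9). The neutrophil list, led by S100a9 at 912 and S100a8 at 560 FPKM, had 9 of 9 tested genes with negative estimates, where 49.0% of all tested genes did. Such counts were not particular to it, since oral epithelium had 10 of 10 genes lower and endothelium 8 of 8 higher with GA. The defining neutrophil marker Ly6g was at 0 in 10 of 12 libraries. The summed level of the neutrophil list ran from 1108 to 2617 FPKM in Vehicle and from 235 to 1829 in GA. That sum was mostly S100a9 (130 to 1594 FPKM) and S100a8 (87.9 to 1013 FPKM). Every other gene of the list was at most 19.7 FPKM, so the sum says little about them. With the neutrophil score as a covariate, the log2 fold change of Ptgs2 was -0.59 in place of -1.32. Hpgds and the mast cell list gave r = 0.12, although mast cell genes were present (Mcpt4 at 6.60 and Cma1 at 3.86 FPKM). Among 36 pairs of the enzymes themselves, 0 had an adjusted permutation p below 0.05 for either coefficient. The highest rho was that of Ptges2 and Ptgis (0.82, r = 0.60, permutation p = 0.00205 and 0.0388, adjusted p = 0.0738 and 0.279). Ptgs2 with Ptges gave r = 0.69 and rho 0.62 (permutation p = 0.0109 and 0.0361, adjusted p = 0.273 for both). Without the 2 libraries farthest from the median of Ptgs2, r was 0.34, and without the gland libraries it was 0.79. Ptgs2 with Hpgd gave r = -0.65 and rho -0.62 (permutation p = 0.0254 and 0.0342, adjusted p = 0.273 for both). For this pair r was -0.70 without the same 2 libraries and -0.62 without the gland libraries.

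**Figure D4:**
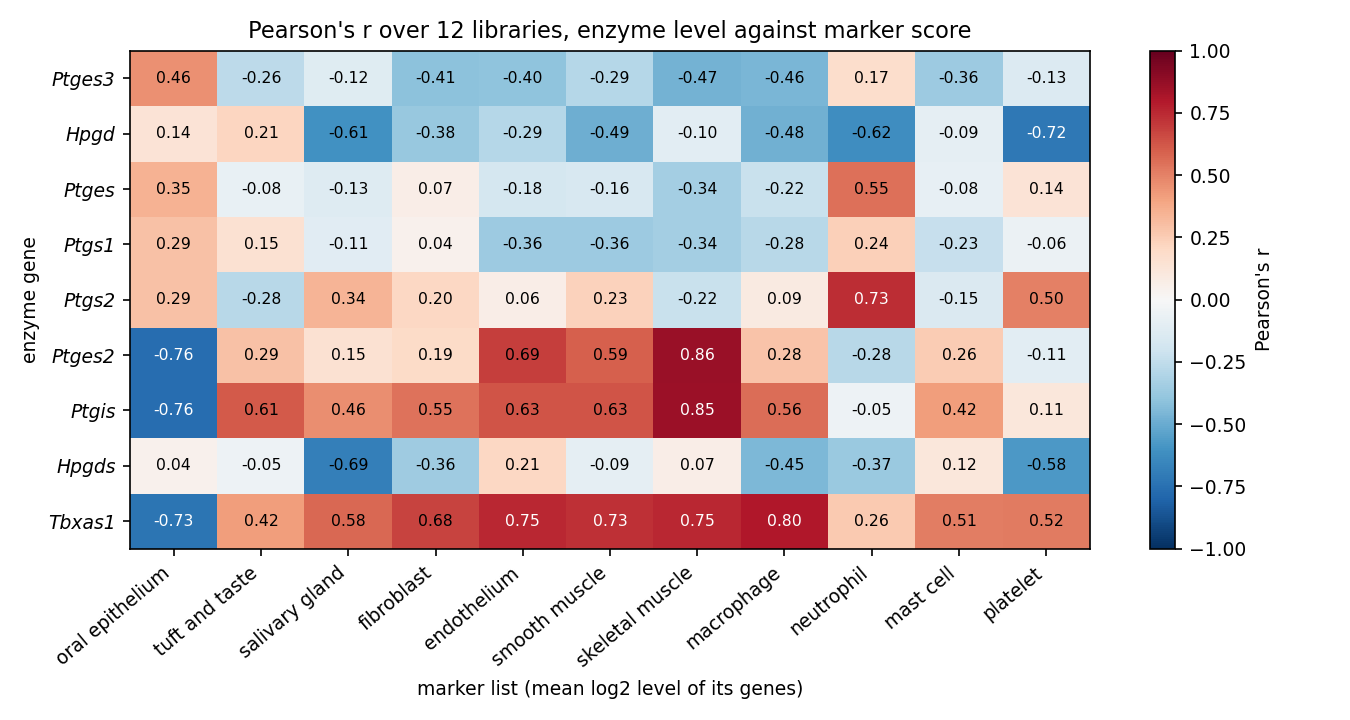
Pearson's r over 12 libraries between the level of each tested enzyme (rows) and the score of each marker list (columns), from blue (-1) to red (1). The values of 0.86 and 0.85 for Ptges2 and Ptgis with skeletal muscle are the ones whose Pearson's r passed adjustment over 99 relations.

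**Figure D5:**
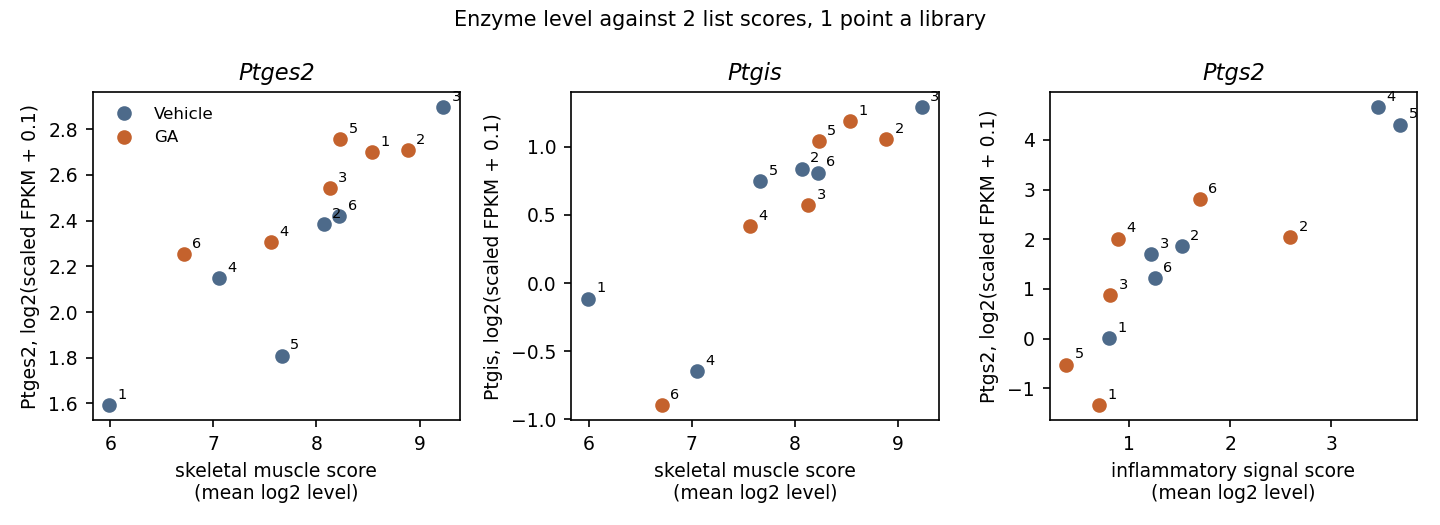
Level of Ptges2 and Ptgis against the skeletal muscle score and of Ptgs2 against the inflammatory signal score, 1 point a library, with the replicate number beside it. Vehicle libraries are blue and GA libraries orange, and Vehicle 4 and 5 stand at the upper right of the Ptgs2 panel.

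For each enzyme the genes with the most similar pattern over the 12 libraries were looked up, as a description, in the 12155 genes that averaged 1 FPKM or more. Ptgs1 ran closest to Ski (r = 0.92), Ank3 (0.88), Clxn, Lrrc47 and Epb41l3. Ptgs2 ran closest to Pgm3 (0.93), Nedd9 (0.93), Entpd7, Mmp13, a collagenase, and Clcf1, a cytokine. Ptges ran closest to Magohb (0.92), Wdr36, Txnrd3, Mfsd10 and Sdad1, and Ptges3 to Zpr1 (0.92), Bud31, Xpot, Ipo4 and Wdr12.

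Ptges2 ran closest to Dlat (0.98), a subunit of pyruvate dehydrogenase, and to Ugp2, Acads, Endog and Mrps5, of which Acads, Endog and Mrps5 also encode mitochondrial proteins. Hpgd ran closest to the keratin Krt32 (0.97) and to Serpinb3a, Calml3, Pycard and Prom2. Serpinb3a and Calml3 are genes of stratified epithelium, at 316 to 2212 and 153 to 700 FPKM.

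Hpgds ran closest to 4 genes of transcription factors, Isl1 (0.95), Tlx1 (0.94), Otx1 and Tbx2, and to Tmem59l. Isl1 was at 0 in the lowest library and at 10.3 FPKM in the highest. Tbxas1 ran closest to Cacng7 (0.90), Cd248, Icam2, Hspa12b and Scarf1, and Ptgis to Osr1 (0.96), Islr, Dpt, Entrep1 and Ppp3cc. Within the 9 libraries without gland RNA, the r of these genes lay between 0.75 and 0.99.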

How the data were processed

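Per the labels, total RNA of mouse tongue was extracted with a Qiagen RNeasy kit and made into SMARTER mRNA-Seq libraries. According to the methods, HISAT2 placed the reads on mm10 and featureCounts tallied those with a unique position. The authors deposited FPKM values, 1 file a sample. The strand setting and the annotation release are not given in the sources used here, and the read counts were not used here. Each file had 55463 rows, of which 22965 (41.4%) had no gene name and were left out.

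Low FPKM values were whole multiples of 1 read when gene length (GENCODE M21) was shortened by a constant of each library (17.0 to 24.2 bases). Then 97.8% to 98.3% of values between 1 and 8 reads came out whole (tolerance 0.02). The limit given for a count of 0 covers counting error only, and the limma intervals rest on the spread between libraries.

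The libraries were brought to a common scale with trimmed means of their log ratios (30% and 5% trimmed, factors 0.914 to 1.08). The 16847 genes that averaged 0.1 FPKM or more were compared on log2(FPKM + 0.1), a scale that understates changes of low genes, with limma 3.58.1 in R 4.3.3 (trend, Benjamini-Hochberg adjustment), which fits FPKM values. The script was tested on simulated data. Single values were tested by exact permutation of the 12 libraries, ratios within libraries by sign flips, and correlations by 100000 permutations (scipy 1.17.1). Tests are two-sided. Nothing says that the libraries are separate animals, and p-values measure the spread between libraries. Correlations used the mean log2 level of a list's genes. Named were the 10 enzymes, the 2 most abundant genes and any with an unadjusted p below 0.05 in each pathway list, the 2 most abundant genes of marker lists that a result turned on, and the 5 most similar genes of each enzyme. Il1b was named after its values were seen. A marker gene is not reported here. The enzymes and the lists were chosen with earlier results of these data known. Alternatives covered the pseudocount, filter, scaling, recovered reads (limma-voom), covariates, gland libraries, each library left out and the replicate number as a block.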

Additional observations from a re-analysis of the deposited data

Results flagged for a closer look

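Within each group of 6 libraries, the distance of the highest or lowest library from its neighbour was compared with the group's range for the 9 tested enzymes and the 3 ratios, 24 groups in all, and set against Dixon's critical value. In 2 of them (8.33%) a library stood apart. The critical value gives about 1 in 20 only for independent groups of normally distributed values. Both flagged distances were taken on FPKM and not on log2 levels, and the ratios reuse the values of the enzymes. The share therefore cannot be set against 1 in 20. For Ptges, Vehicle replicate 4 was the highest at 47.1 FPKM against 24.2 in the next library (0.690 of the range). For Ptges3, Vehicle replicate 3 was the lowest at 34.9 FPKM against 44.8 (0.653 of the range). Vehicle 4 also held the highest Ptgs1 and Ptgs2, and Vehicle 3 is 1 of the 3 libraries with gland RNA.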

How the results depend on the processing

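The count of called genes was 0 under the main setting and under all alternatives except 2: it was 1 without Vehicle 4 (range 0 to 1 over the libraries left out in turn) and 328 at an unadjusted p below 0.1 with the same fold change limit, the second by construction. No enzyme was called under any alternative in which it was tested (26, or 25 for Hpgds and Tbxas1, which a filter at 1 FPKM leaves out). Ptgs1, Ptgs2, Ptges, Ptges2, Hpgds and Tbxas1 kept their direction in these. With libraries left out, Ptges2 ranged from 0.21 to 0.47, Tbxas1 from 0.05 to 0.37 and Hpgds from 0.18 to 0.47, and over the other settings Tbxas1 ranged from 0.04 (pseudocount of 1) to 0.49 (recovered reads). Ptges3 turned to -0.064 with the sex term. Hpgd turned to 0.060 with the sex term, was -0.51 with the neutrophil term and ranged from -0.32 to 0.18 with libraries left out. Ptgis turned to -0.13 with the muscle term and ranged from -0.15 to 0.37. The difference between groups in Ptges over Hpgd turned to 0.28 with the neutrophil term and to 0.082 without Vehicle 4 (range -0.53 to 0.082). That in Hpgds over Ptgds turned to 0.086 with a pseudocount of 1, was -0.99 with a pseudocount of 0.01 and ranged from -0.39 to 0.17 with libraries left out. The cause of these turns was not tested. The log2 ratio of Ptgs1 to Ptgs2 stayed between 1.46 and 2.26 (p at most 0.0156). The replicate numbers did not pair the samples (correlation of same-numbered deviations -0.37 to 0.08, and 0 of 6 libraries correlated best with their own number). With the replicate block, 0 genes were called, 244 in place of 364 had an unadjusted p below 0.05, and Ptgs1 had a p of 0.00512 at the same log2 fold change of -0.58. Depth limits Ptgds (0 to 6 reads) and Tbxas1 (3 to 62 reads).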
